A study of Oryza sativa Japonica Group with 24 samples.

Results

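Anthers collected in the light were compared with anthers collected in the dark, all from rice plants kept under short days (SD). The light group was made up of the 6 SD libraries taken at 08:00, noon (12:00) and 16:00, and the dark group of the 6 SD libraries taken at 20:00, 00:00 and 04:00. The libraries were chosen by photoperiod and clock time, without any measured value, and 12 of the 24 libraries of the series entered. Plants were wild type of the *japonica* variety 9522, grown in paddy fields in summer, and anthers were taken at the first mitosis of the microspores. SD plants had 12 h of light, obtained by covering them with black cloth before the end of the natural day, and long day (LD) plants had the natural day of about 14 h. Each photoperiod was sampled at 6 time points, 4 h apart, with 2 biological replicates each. Light, clock time and whatever else follows the hour cannot be told apart in this design. The 2 libraries of a time point also share that time point, so p-values over 6 and 6 libraries count 3 light and 3 dark time points as more than they are.

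As background, light-harvesting proteins bind chlorophyll in the thylakoid membranes of plastids and pass the energy to the photosystems, and in leaves their genes are mostly transcribed by day. The plant circadian clock is a loop of factors that follow each other through the day, with CCA1 and LHY around dawn, the pseudo-response regulators (PRR) through the day, and GI, LUX, ELF3 and TOC1 towards evening. During pollen development the anther wall, with the tapetum as its inner layer, supplies the pollen with sugars and lipids. The paper places the start of programmed cell death in rice anthers before the sampled stage.

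SD libraries held between 18459126 and 27529649 counts, 18459126 to 24902540 in the light and 18682355 to 27529649 in the dark, and between 28171 and 29547 loci had at least 1 count. The 100 most abundant loci took 18.0% ± 1.04 of the counts in the light and 16.0% ± 1.60 in the dark (SD, n = 6 each, two-sided exact permutation test, p = 0.0325). The total count (exact permutation test, p = 0.364) and the number of loci detected (exact permutation test, p = 0.589) did not pass the same test. Replicates of a time point correlated across genes with r between 0.952 (00:00) and 0.987 (12:00). Both SD 12:00 libraries stood apart from the rest. On the first principal component, which took 48.4% of the variance, they lay at 115 and 131, and the other 10 SD libraries lay between −55.8 and 20.4. Most calls of named genes outside the photosynthesis list are therefore also given without 12:00. The tapetum genes *OsABCG15* (LOC_Os06g40550), a lipid exporter, *OsLAP6* (LOC_Os10g34360), a polyketide synthase of the pollen wall, and *HTH1* (LOC_Os04g48400) were detected in all 12 libraries. Their levels differed widely between replicates of a time point. *HTH1* had 5.84 and 127 CPM (read counts scaled by TMM to a common library size) at 08:00 and 85.3 and 2.81 CPM at 16:00, and between 6.44 and 61.3 CPM in the dark. None of the 3 passed the light against dark test (edgeR adjusted p from 0.357 to 0.546), and their part in other differences was not tested.

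The first question was how much of the anther transcriptome differs between light and dark. Of 22794 genes tested, 510 differed (2.24%), which means a Benjamini-Hochberg adjusted p below 0.05 and at least a 2-fold change in edgeR's quasi-likelihood test. Most of them were higher in the light, with 476 genes (2.09%) against 34 genes (0.149%) that were lower. Without the fold-change threshold, 1716 genes (7.53%) had an adjusted p below 0.05, of which 1028 were higher and 688 lower. Over the 6 time points as such, 4040 of 24430 genes (16.5%) differed in an F-test. The median log2 fold change of all genes tested was 0.01.

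The genes higher in the light were mostly genes of midday. The highest mean was at 12:00 for 397 of the 476 genes (83.4%), against 6739 of all 22794 genes tested (29.6%). It was at 16:00 for 58 genes and at 08:00 for 21 genes, against 22.5% and 9.13% of all genes tested. Of the 476, 0 had it at a dark time point. Being called higher in the light favours a highest mean in the light, which lifts the 83.4% against the 29.6%. The lowest mean of the 476 genes was at 04:00 for 305 genes (64.1%), at 20:00 for 112, and at 00:00 for 59. Of the 476, 435 had all 3 light time points above all 3 dark time points, and in 209 genes each of the 6 light libraries was above each of the 6 dark libraries. Being called higher in the light favours both counts as well. Among all genes tested, 443 (1.94%) had all light libraries above all dark libraries and 307 (1.35%) had them all below.

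The number of genes depended on single time points. Without 12:00, 89 genes differed (0.383%), 81 higher (0.349%) and 8 lower (0.0344%), and 83 of these 89 were among the 510. All 476 genes higher in the light kept a positive log2 fold change without 12:00, and for 273 it was still at least 1, with a median of 1.05 instead of 1.33. Without 04:00, 61 genes differed, and without 20:00, 99. Leaving out 1 library gave between 144 genes (without SD 00:00 replicate 1) and 900 genes (without SD 00:00 replicate 2). Counts also fell to 217 and 212 without SD 12:00 replicate 1 or 2, to 209 without SD 20:00 replicate 1, and to 202 and 265 without SD 04:00 replicate 1 or 2. A model of the 6 time points, which takes the spread from replicates of a time point alone, gave 1068 genes (4.69%), with 716 higher (3.14%) and 352 lower (1.54%).

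**Figure D1:**
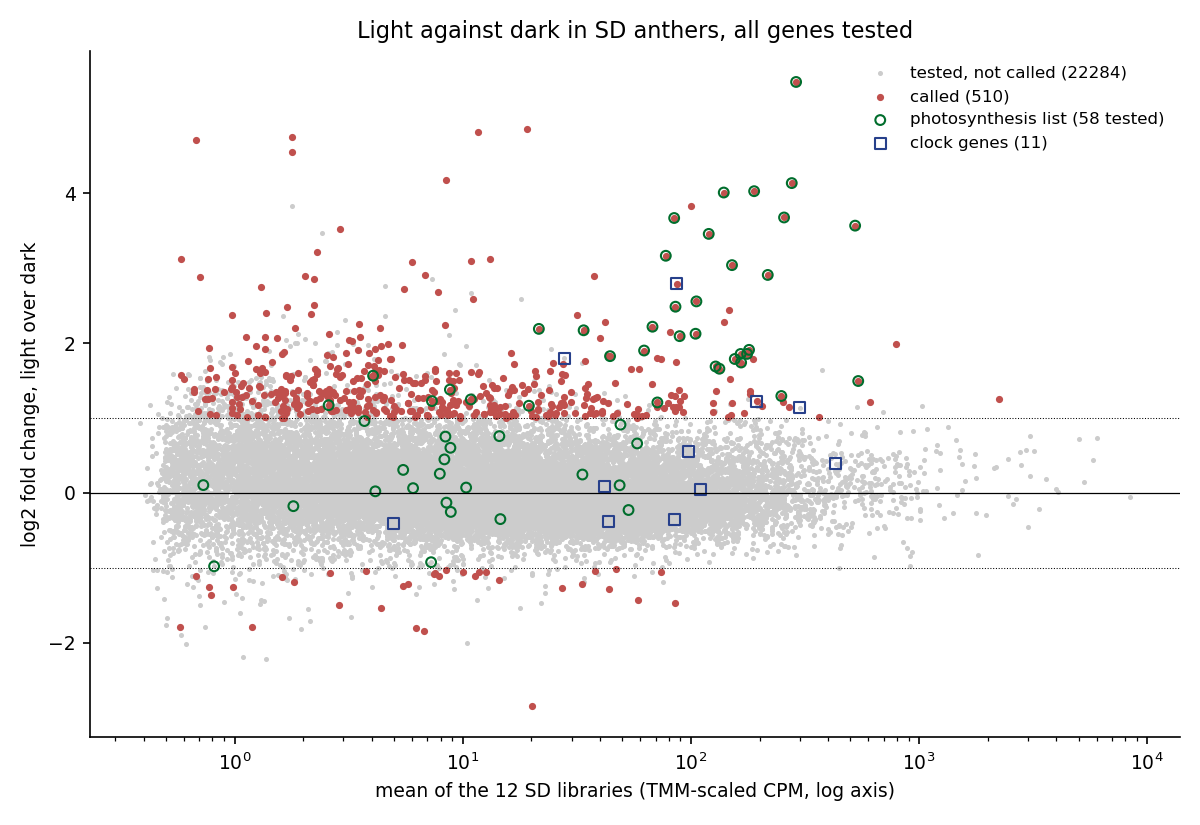
Log2 fold change of light over dark in SD anthers (vertical axis) against the mean CPM of the 12 libraries (horizontal log axis), with 1 point for each of the 22794 genes tested. Red points are the 510 genes that differed, green rings the 58 tested genes of the photosynthesis list, and blue squares the 11 clock genes. Of the 58 green rings 36 are among the genes higher in the light, and the highest point of the plot is *OsCAB1R* at 5.49.

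Photosynthesis genes held many of the large differences. The list held 62 loci, those with the gene ontology terms photosynthesis or thylakoid in the study's sheets together with *OsCAB1R*. Those sheets list genes that differed between SD and LD anthers in these libraries. They also list genes of co-expression modules that the paper built from these libraries, SD light and dark included. Neither this list nor the others drawn from their annotation is therefore independent of the libraries. Of 58 members tested, 36 were higher in the light, against 2.09% of all genes, and 0 were lower, against 0.149%. By an unadjusted p below 0.05 it was 42 higher and 2 lower, against 6576 of all 22794 genes tested in either direction. DESeq2, which kept the 4 members too low for edgeR's filter, called 36 higher and 1 of those 4 (LOC_Os07g22498) lower. The median log2 fold change was 1.44 over the 58 members and 0.01 over all genes. Summed over the list, photosynthesis transcripts amounted to between 6325 and 12091 CPM in light libraries and between 1480 and 2364 CPM in dark libraries, without overlap.

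*OsCAB1R* (LOC_Os09g17740), which codes for a chlorophyll a/b-binding protein, had the largest log2 fold change of all genes tested. It had 328 to 779 CPM in the light (median 535) and 5.21 to 20.4 CPM in the dark (median 14.0). Values were 557 and 513 CPM at 08:00, 750 and 779 CPM at 12:00 and 328 and 467 CPM at 16:00, and already 12.7 and 15.3 CPM at 20:00. The lowest values were 5.21 and 5.70 CPM at 00:00, and 04:00 had 16.4 and 20.4 CPM. Its log2 fold change was 5.49 (SE 0.39, edgeR adjusted p = 1.82e-05), and 5.19 without 12:00 (adjusted p = 8.07e-05). How the authors treated reads shared by near-identical members of this gene family is not given in the sources used here, so the share of single members is uncertain.

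Other members had smaller but similarly clear differences. LOC_Os06g21590 had the smallest adjusted p of all genes tested in the list, with 154 to 261 CPM in the light (median 225) and 12.8 to 26.1 CPM in the dark (median 20.7). Its log2 fold change was 3.46 (SE 0.19, edgeR adjusted p = 1.64e-06). LOC_Os07g37240 had 248 to 503 CPM in the light (median 394) and 37.5 to 60.5 CPM in the dark (median 52.1), a log2 fold change of 2.91 (SE 0.18, adjusted p = 4.5e-06). In both genes every light library was several times above every dark one. LOC_Os03g39610 (4.13), LOC_Os08g33820 (4.03), LOC_Os07g37550 (4.01), LOC_Os11g13890 (3.68), LOC_Os02g10390 (3.67), LOC_Os01g41710 (3.57) and LOC_Os07g05480 (3.17) followed by log2 fold change, each without overlap between light and dark libraries (adjusted p from 1.82e-05 to 0.00602). LOC_Os01g41710 had 156 and 188 CPM at 20:00 and 28.5 and 33.0 CPM at 00:00, so that its evening level lay between the light and the later night.

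Within the 36 genes, 18 changed by 4-fold or more and 10 by 8-fold or more, and in 31 the light and dark libraries did not overlap. Among all 476 genes called higher in the light, 209 had all light libraries above all dark libraries. Among all genes tested it was 1.94%. The highest mean was at 12:00 in 35 of the 36, against 83.4% of all 476 genes called higher in the light. The lowest mean was at 04:00 in 20, at 00:00 in 12 and at 20:00 in 4. These genes did not rest on 12:00 to the extent that the total did. Without 12:00, 29 of the 36 were still called, and 34 had a log2 fold change of at least 1. Without 04:00 it was 25 of the 36. Photosynthesis genes were 29 of the 89 genes found without 12:00, 25 of the 61 found without 04:00, and 15 of the 24 found when the test was made against a 2-fold change. When the replicates of a time point were summed, so that 3 light were compared with 3 dark time points, 3 genes remained in all, and all 3 were members of this list, LOC_Os06g21590, LOC_Os07g37240 and LOC_Os04g38410. The last of these had 136 to 246 CPM in the light and 22.1 to 41.6 CPM in the dark.

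The other 22 members tested did not pass. Of these, 15 had a log2 fold change above 0, and 2 had an adjusted p below 0.05 with less than a 2-fold difference. These were LOC_Os03g36540, with 60.3 to 85.6 CPM in the light and 35.8 to 50.4 CPM in the dark (log2 fold change 0.66, adjusted p = 0.00835), and LOC_Os12g37710, with 13.7 to 23.9 CPM and 7.95 to 13.6 CPM (0.76, adjusted p = 0.0292). The lowest log2 fold change was that of LOC_Os10g21406 (−0.98, adjusted p = 0.393), with 0.143 to 1.63 CPM in the light and 0 to 2.08 CPM in the dark. Next to it, LOC_Os10g32400 had a median of 4.00 CPM in the light and 9.34 CPM in the dark (log2 fold change −0.93, adjusted p = 0.138), with overlap. The remaining 4 members of the list were too low to be tested.

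**Figure D2:**
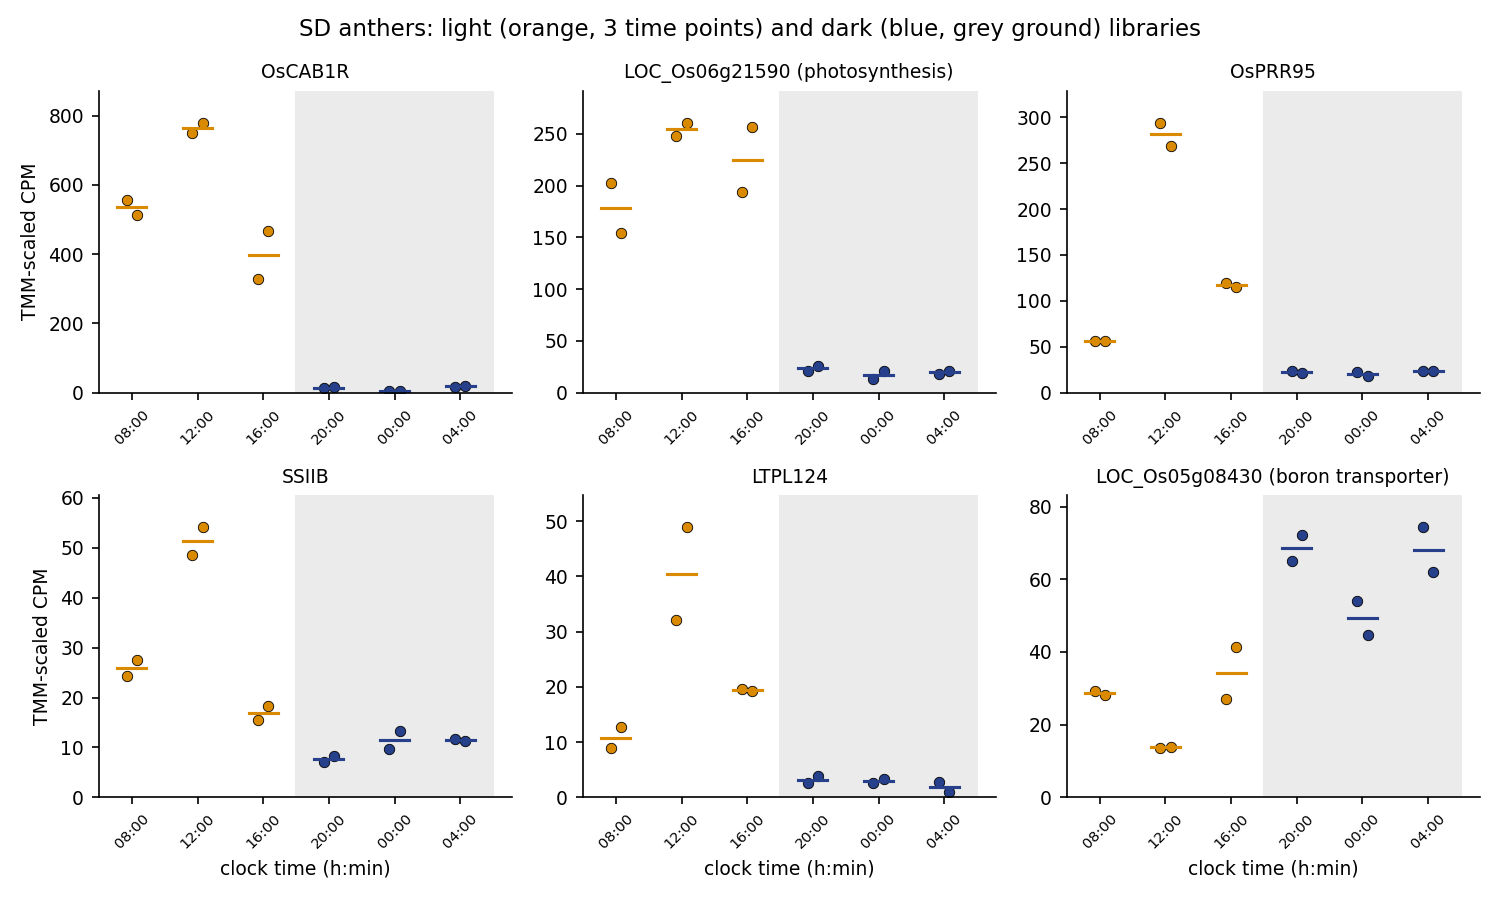
TMM-scaled CPM of 6 genes (vertical axes, from 0) in the 12 SD libraries by clock time (horizontal axis). Points are libraries, 2 at each time, and short lines their mean, with light in orange and dark in blue on grey. *OsCAB1R* lies between 328 and 779 CPM in the light and at or below 20.4 CPM in the dark, *OsPRR95* is above its night level of 17.8 to 23.7 CPM in all light libraries and most at 12:00, and LOC_Os05g08430 is lowest at 12:00.

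Most clock genes differed between time points, and how many differed between light and dark depended on the fit. All 11 clock genes of the study's rhythm sheet were tested. In the F-test over the 6 time points 8 of the 11 passed (background 16.5%). In the light against dark fit of 6 and 6 libraries 1 of the 11 was called, *OsPRR95* (background 2.24%). In the model of the 6 time points 4 of the 11 were called higher in the light (background 3.14%), *OsPRR95* (log2 fold change 2.49, adjusted p = 1.91e-07), *OsFKF1* (1.65, adjusted p = 9.39e-06), *OsPRR73* (1.47, adjusted p = 5.28e-06) and *OsCCA1/OsLHY* (1.35, adjusted p = 5.66e-05), and 8 of the 11 had an adjusted p below 0.05 at any fold. *OsPRR95* (LOC_Os09g36220), a pseudo-response regulator, had 56.0 and 56.4 CPM at 08:00, 294 and 269 CPM at 12:00 and 120 and 115 CPM at 16:00. In the dark it stayed between 17.8 and 23.7 CPM in all 6 libraries. The groups did not overlap (log2 fold change 2.79, SE 0.40, edgeR adjusted p = 0.00402; 1.96 without 12:00, adjusted p = 0.00132). It no longer passed when 04:00 was left out.

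The other rhythmic clock genes spread over the light and dark time points. *OsCCA1/OsLHY* (LOC_Os08g06110), the MYB factors of dawn, had 641 and 760 CPM at 08:00 and 473 and 502 CPM at 12:00, but 46.9 and 43.4 CPM at 16:00, and in the dark it was at 508 and 422 CPM at 04:00 and at 29.6 and 30.7 CPM at 20:00 (log2 fold change 1.14, adjusted p = 0.408). The groups overlapped, with 04:00 close to 12:00. *OsPRR73* (LOC_Os03g17570) had 380 and 362 CPM at 12:00, 297 and 322 CPM at 16:00 and 135 and 130 CPM at 08:00, and was still at 231 and 249 CPM at 20:00, before 50.1 to 57.8 CPM later in the night (log2 fold change 1.22, adjusted p = 0.119). *OsFKF1* (LOC_Os11g34460), a blue-light receptor F-box protein, was highest at 16:00, with 69.6 and 75.8 CPM, against 7.04 and 8.03 CPM at 08:00 and 21.6 and 26.3 CPM at 20:00 (log2 fold change 1.80, adjusted p = 0.0938). *OsGI* (LOC_Os01g08700) stood at 746 and 800 CPM at 16:00, at 126 and 132 CPM at 08:00, and at 815 and 879 CPM at 20:00 (log2 fold change 0.39, adjusted p = 0.739). *OsLUX* (LOC_Os01g74020) was low, with 9.81 and 12.5 CPM at 16:00, 10.4 and 12.6 CPM at 20:00 and no more than 1.14 CPM at 08:00, 12:00 and 04:00 (log2 fold change −0.40, adjusted p = 0.797).

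*OsPRR37* (LOC_Os07g49460) and *OsTOC1/OsPRR1* (LOC_Os02g40510) also had their highest mean at 16:00. *OsPRR37* had 148 and 130 CPM then, 136 CPM in both libraries at 20:00, and 39.8 to 59.4 CPM at 00:00 and 04:00. *OsTOC1/OsPRR1* ranged from 24.1 to 57.5 CPM in the light and from 29.3 to 55.1 CPM in the dark, so that light and dark covered the same range. *OsZTL1* (LOC_Os02g05700), an F-box protein, had 70.7 to 84.1 CPM in the light and 78.0 to 106 CPM in the dark, a difference of less than 2-fold (log2 fold change −0.36, SE 0.09, adjusted p = 0.0361). It lost its adjusted p below 0.05 without 12:00 (0.109). *OsELF3* (LOC_Os06g05060) had 32.0 to 45.1 CPM in the light and 37.3 to 61.1 CPM in the dark (log2 fold change −0.38, adjusted p = 0.0779), and *OsZTL2* (LOC_Os06g47890) was the flattest clock gene, with 110 to 114 CPM in the light and 101 to 117 CPM in the dark.

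**Figure D3:**
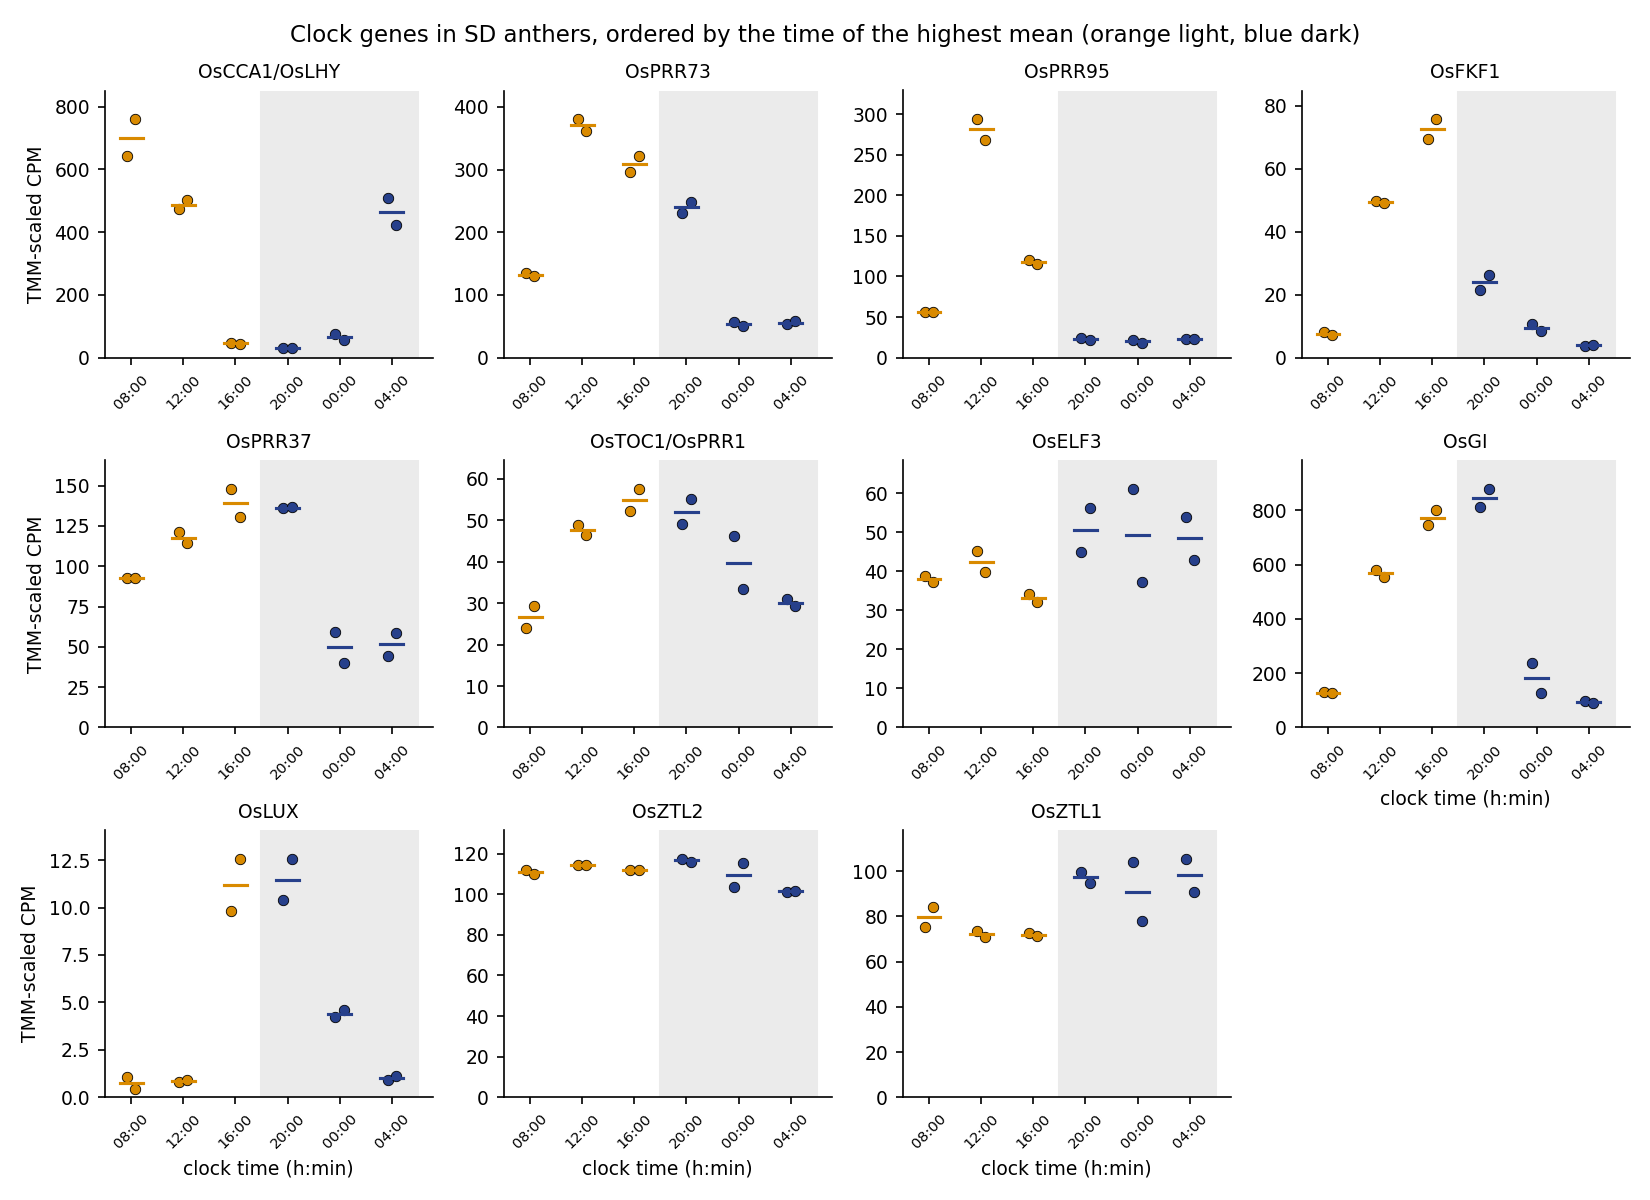
TMM-scaled CPM (vertical axes, from 0) of the 11 clock genes in the 12 SD libraries by clock time (horizontal axis), in order of the time of the highest mean. Points are libraries, lines are means, light is orange and dark is blue on grey. Only *OsPRR95* has all light libraries above all dark libraries, and *OsCCA1/OsLHY*, *OsPRR73* and *OsGI* are high on both sides of the light and dark border.

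The photoreceptor and light signalling list had 4 members. In the edgeR fit of 6 and 6 libraries 0 were called, and 0 in DESeq2. By an unadjusted edgeR p below 0.05 it was 1, against 6576 of all 22794 genes tested. In the model of the 6 time points 1 was called lower (background 1.54%), LOC_Os10g32900 (log2 fold change −1.88, adjusted p = 0.0386). A putative phytochrome A (LOC_Os03g51030), a receptor of far-red and red light, had 65.8 to 106 CPM in the light (median 71.9) and 97.7 to 127 CPM in the dark (median 124). Its adjusted p was below 0.05 at less than a 2-fold difference (log2 fold change −0.54, SE 0.14, adjusted p = 0.0384; −0.79 without 12:00, adjusted p = 0.00468). The highest light values were the 106 and 103 CPM at 12:00, and they overlapped with the 97.7 CPM of SD 00:00 replicate 2. The 3 members of the CCT family (LOC_Os03g04620, LOC_Os06g01340 and LOC_Os10g32900) had log2 fold changes of −0.94, −0.34 and −0.74 and adjusted p values of 0.494, 0.743 and 0.587, with wide spread among the libraries.

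Among genes of carbon metabolism, single genes were higher in the light and the lists as a whole were not. In the starch list, 1 of 27 tested genes was called (background 2.24%), the starch synthase *SSIIB* (LOC_Os02g51070). It had 15.5 to 54.1 CPM in the light (median 25.9) and 7.13 to 13.2 CPM in the dark (median 10.5), without overlap, and was highest at 12:00 with 48.6 and 54.1 CPM. Its log2 fold change was 1.62 (SE 0.30, edgeR adjusted p = 0.0148; 1.06 without 12:00, adjusted p = 0.0432). The median log2 fold change of the starch list was −0.16, with 7 of 27 above 0. By an unadjusted edgeR p below 0.05 it was 2 higher and 7 lower. In the model of the 6 time points 1 starch gene was called higher (background 3.14%) and 2 were called lower (background 1.54%). In the glycolysis list, 1 of 27 was called (3.70%, background 2.24%), the gene listed as *GADPH* (LOC_Os03g03720). It had 64.4 to 192 CPM in the light (median 140) and 22.1 to 57.5 CPM in the dark (median 39.8). It was not called without 12:00 (log2 fold change 1.75, SE 0.34, adjusted p = 0.0167; 1.48 without 12:00, adjusted p = 0.073). By an unadjusted edgeR p below 0.05, 8 glycolysis genes were higher and 5 lower. The model of the 6 time points called 2 of them higher and 1 lower. In the list of sucrose, invertase, hexokinase and trehalose genes, 1 of 31 was called (3.23%, background 2.24%). This was *OsTPP7* (LOC_Os09g20390), a trehalose phosphate phosphatase, with 1.34 to 6.51 CPM in the light and 0.679 to 1.40 CPM in the dark. Its log2 fold change was 1.48 (adjusted p = 0.0371), and 0.77 without 12:00 (adjusted p = 0.132). Of 18 sugar transporters tested, 0 were called in the edgeR fit of 6 and 6 libraries and 1 in DESeq2. By an unadjusted edgeR p below 0.05 it was 6 higher and 2 lower, against 6576 of all 22794 genes tested in either direction. The median of the sugar transporters was 0.40. In the model of the 6 time points 1 was called higher (background 3.14%) and 1 lower (background 1.54%).

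Water and potassium transport followed. Of 21 aquaporins tested, 3 were higher in the light (background 2.09%) and 0 were lower (background 0.149%), and the median of the list was 0.50. Summed over the list, aquaporin transcripts did not overlap between groups, with 3903 to 5128 CPM in the light and 2451 to 3743 CPM in the dark. *OsPIP2;4* (LOC_Os07g26630), a water channel of the plasma membrane, had 18.6 and 20.6 CPM at 12:00, 1.43 to 8.20 CPM at the other light time points and 1.02 to 1.95 CPM in the dark (log2 fold change 2.72, SE 0.55, adjusted p = 0.0187). *RWC3* (*OsPIP1;3*, LOC_Os02g57720) was highest at 08:00, with 19.7 and 12.5 CPM, and had 7.08 to 19.7 CPM over the light and 4.08 to 8.00 CPM over the dark libraries (log2 fold change 1.17, SE 0.24, adjusted p = 0.0202). LOC_Os07g26660 had 1.33 to 3.48 CPM in the light and 0.362 to 1.55 CPM in the dark (1.32, adjusted p = 0.0371). Light and dark overlapped in all 3, and none was called without 12:00 (adjusted p of 0.073, 0.0822 and 0.0928). Of 27 potassium transporters, 1 was called (3.70%, background 2.24%), a putative AKT1 channel (LOC_Os01g52070). It had 0.286 to 2.99 CPM in the light and 0.148 to 1.09 CPM in the dark (log2 fold change 1.96, adjusted p = 0.0445, and 0.142 without 12:00).

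Lipid transfer proteins, small secreted proteins that carry lipids and are abundant in anthers, were the second list by median. Of 44 tested, 6 were higher in the light (background 2.09%) and 0 were lower (background 0.149%), and the median log2 fold change was 0.57. In the model of the 6 time points 11 were higher (background 3.14%) and 3 were lower (background 1.54%). LTPL124 (LOC_Os04g52260) had 8.88 to 48.8 CPM in the light (median 19.4) and 1.04 to 3.81 CPM in the dark (median 2.67). All light libraries were above all dark libraries, and the gene was called with and without 12:00 (log2 fold change 3.13, SE 0.42, adjusted p = 0.00243; 2.47 without 12:00, adjusted p = 0.00296). LTPL113 (LOC_Os02g44320) was likewise without overlap, at 162 to 383 CPM in the light and 89.3 to 126 CPM in the dark (1.35, SE 0.20, adjusted p = 0.00451; 1.02 without 12:00, adjusted p = 0.00672). LTPL56 (LOC_Os07g43290) had 21.9 to 42.6 CPM in the light and 10.9 to 24.9 CPM in the dark (1.04, adjusted p = 0.0201), and LTPL122 (LOC_Os04g46830) had 0.668 to 6.87 CPM and 0.104 to 0.816 CPM (2.48, adjusted p = 0.0282). LTPL11 (LOC_Os12g02310) and LTPL12 (LOC_Os12g02320) had log2 fold changes of 1.13 and 1.10 (adjusted p of 0.0392 and 0.0422). These 4 were not called without 12:00. Summed over the list, lipid transfer protein transcripts took a different course from the called genes, with 9910 and 10376 CPM at 12:00, 18655 to 21906 CPM at 08:00 and 16:00, and 12193 to 20205 CPM in the dark.

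Of 37 genes of wax, fatty acid and isoprenoid synthesis, 4 were higher in the light (background 2.09%) and 0 were lower (background 0.149%), with a median of 0.47. *CLA1* (LOC_Os05g33840), the deoxyxylulose phosphate synthase that opens plastid isoprenoid synthesis, had 24.6 to 77.5 CPM in the light and 13.0 to 25.2 CPM in the dark (log2 fold change 1.27, SE 0.26, adjusted p = 0.0187). A 3-ketoacyl-CoA synthase (LOC_Os02g56860), an enzyme class that elongates fatty acids, had 1.62 to 3.99 CPM in the light and 0.468 to 1.63 CPM in the dark (1.60, adjusted p = 0.0167). Of 2 fatty acid hydroxylases, LOC_Os10g38940 had 9.21 to 13.6 CPM in the light and 2.85 to 7.69 CPM in the dark, without overlap (1.14, adjusted p = 0.0223), and LOC_Os03g01820 had 4.54 to 12.2 CPM and 2.39 to 4.92 CPM (1.09, adjusted p = 0.0476). None of these 4 was called without 12:00 (adjusted p from 0.0739 to 0.181).

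The remaining lists held few calls. Of 181 genes of translation and the ribosome, 4 were called, all higher in the light (2.21% of the list, background 2.09%, median 0.11). These were LOC_Os09g39500 (log2 fold change 1.23, adjusted p = 0.0128), LOC_Os01g44210 (1.20, adjusted p = 0.0203), LOC_Os11g34940 (1.35, adjusted p = 0.0226) and LOC_Os12g03090 (1.20, adjusted p = 0.0278), of which LOC_Os11g34940 also had the term plastid. None of the 4 was called without 12:00 (adjusted p from 0.0682 to 0.0905). SD 00:00 replicate 2 was the highest dark library in all 4, for instance with 137 CPM of LOC_Os12g03090 against 45.5 to 82.8 CPM in the other dark libraries and 108 to 243 CPM in the light. Of 51 cell wall enzymes, 1 was higher (background 2.09%) and 1 was lower (background 0.149%). The higher one was a polygalacturonase (LOC_Os01g19170, log2 fold change 1.30, adjusted p = 0.0438, and 0.137 without 12:00). The lower one was the cellulose synthase-like *CSLE6* (LOC_Os09g30130), with 2.05 to 9.35 CPM in the light and 7.27 to 14.0 CPM in the dark (−1.11, adjusted p = 0.0481, and 0.108 without 12:00). Of 30 tested genes of the anther-specific list, 1 was higher in the light (3.33%, background 2.09%), a peroxidase (LOC_Os08g20730). It had 29.6 and 30.5 CPM at 12:00, 5.68 to 15.5 CPM at the other light time points and 2.96 to 6.71 CPM in the dark (1.62, adjusted p = 0.0383, and 0.143 without 12:00). Summed, the anther-specific list had 876 to 3645 CPM in the light and 1319 to 2614 CPM in the dark.

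In 6 further lists 0 genes were called in the edgeR fit of 6 and 6 libraries. These held 20 chaperones (0 with an unadjusted p below 0.05), 15 histone and cell cycle genes (5 higher), 41 hormone genes (5 higher and 7 lower), 43 MYB, WRKY and bHLH factors (1 higher and 2 lower), 13 pollen coat and allergen genes (1 higher) and 11 male fertility genes (0). Over all genes tested, 6576 of 22794 had an unadjusted p below 0.05, in either direction. DESeq2 called 1 of the MYB, WRKY and bHLH factors and 0 in the other 5 lists. The model of the 6 time points called 4 of the 13 pollen coat and allergen genes lower in the light (background 1.54%). It also called 2 of the 41 hormone genes lower, and 0 genes in each of the other lists. The median of the pollen coat and allergen list was −0.17 over the 13 genes, and 0.22 over the 16 tested without 12:00. Summed over that list, transcripts overlapped, with 1822 to 3738 CPM in the light and 1863 to 2432 CPM in the dark. The 11 male fertility genes had log2 fold changes between −0.21 and 0.81 and adjusted p values of at least 0.357. *CSA* (LOC_Os01g16810), a MYB factor whose loss gives photoperiod-sensitive male sterility, had 86.7 to 131 CPM in the light and 92.2 to 127 CPM in the dark (log2 fold change 0.05, SE 0.12). *OsUgp1* (LOC_Os09g38030), a UDP-glucose pyrophosphorylase, had 639 to 872 CPM in the light and 568 to 815 CPM in the dark (0.16, SE 0.12).

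**Figure D4:**
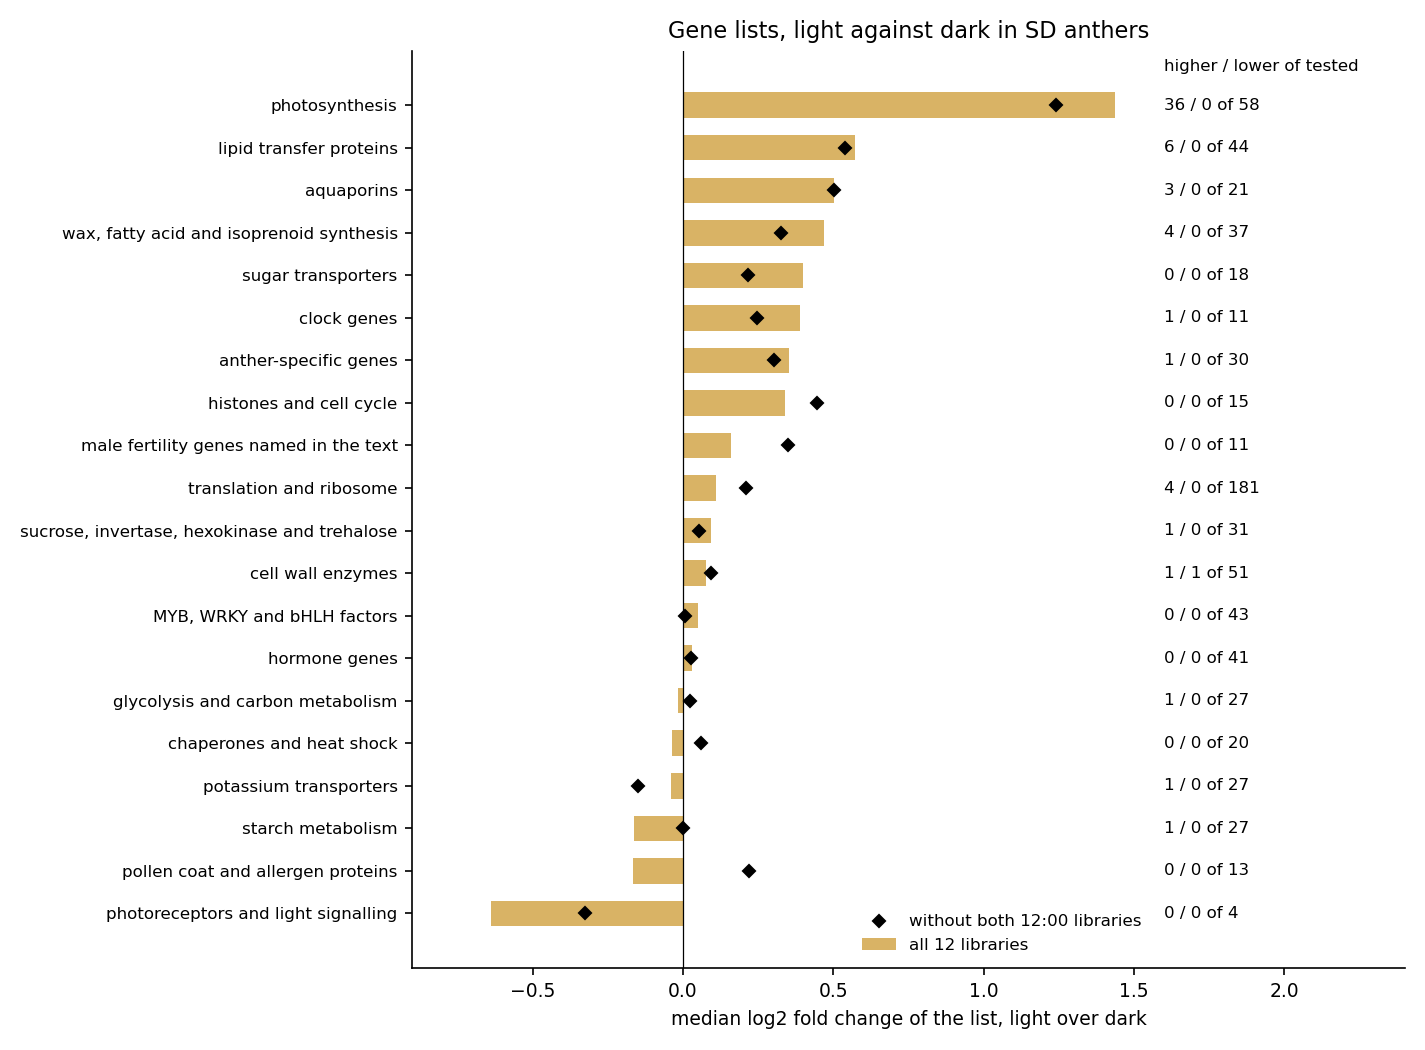
Median log2 fold change of light over dark in SD anthers (horizontal axis) for the tested members of 20 gene lists (rows). Bars are the 12 libraries and diamonds the fit without both 12:00 libraries, and the figures on the right count members higher and lower in the light among those tested. The photosynthesis list stands at 1.44 with 36 of 58 members higher, and the lipid transfer proteins come next at 0.57.

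Fewer genes were lower in the light. Of the 34, 7 had an annotation, against 128 of all 510 genes called. A mean of at least 5 CPM was reached by 22. In 22 all light libraries were below all dark libraries, against 1.35% of all genes tested. Their highest mean was at 04:00 in 17 genes, at 20:00 in 15 and at 00:00 in 2, and their lowest mean was at 12:00 in 26. A putative boron transporter (LOC_Os05g08430), which moves borate across membranes, had 13.6 and 14.0 CPM at 12:00, 27.0 to 41.5 CPM at 08:00 and 16:00, and 44.5 to 74.2 CPM in the dark. Its log2 fold change was −1.28 (SE 0.25, edgeR adjusted p = 0.0173; adjusted p = 0.0276 without 12:00, but then just under a 2-fold difference and so not called), and no light library reached a dark one. LOC_Os04g49450, which has no annotation here, had the largest difference, with 2.34 to 9.25 CPM in the light (median 3.32) and 9.60 to 69.8 CPM in the dark (median 27.9; log2 fold change −2.85, SE 0.57, adjusted p = 0.0184). It climbed through the night, with 9.60 and 10.5 CPM at 20:00, 25.6 and 30.3 CPM at 00:00 and 66.6 and 69.8 CPM at 04:00, and it was not called without 12:00 (adjusted p = 0.0822). LOC_Os10g39140 had 1.63 to 5.72 CPM in the light and 7.64 to 13.3 CPM in the dark (−1.84, SE 0.29, adjusted p = 0.00692; −1.58 without 12:00, adjusted p = 0.0235). LOC_Os01g45640 and LOC_Os02g49230, named here after their values were seen, had 12.6 to 70.4 CPM against 106 to 142 CPM and 15.4 to 58.2 CPM against 64.7 to 114 CPM in light and dark libraries. Without 12:00 the adjusted p was 0.00307 for LOC_Os01g45640 and 0.0795 for LOC_Os02g49230, which was then not called.

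Some genes with large increases were outside the lists. LOC_Os06g10750, without annotation here, had 14.4 to 73.0 CPM in the light (median 32.7) and 0.387 to 2.13 CPM in the dark (median 1.27), a log2 fold change of 4.86 (SE 0.52, edgeR adjusted p = 0.000353), and 4.20 without 12:00 (adjusted p = 0.000741). A putative citrate transporter (LOC_Os08g39370), chosen after its values were seen, had 18.8 and 22.5 CPM at 12:00, 4.15 to 8.75 CPM at the other light time points and 0.582 to 1.77 CPM in the dark (log2 fold change 3.08, adjusted p = 0.00604; 2.17 without 12:00, adjusted p = 0.00681). An endoglucanase (LOC_Os08g29770), chosen in the same way, showed how far 12:00 alone could carry a difference. It had 2824 and 2921 CPM at 12:00, 402 to 582 CPM at 08:00 and 16:00 and 245 to 362 CPM in the dark, and its log2 fold change of 1.99 (adjusted p = 0.043) was 0.53 without 12:00 (adjusted p = 0.0901).

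The same contrast in LD anthers was then set beside these values, since the LD libraries played no part in the calls above. The tapetum genes were far lower in LD, with CPM scaled within each photoperiod. Light and dark means of *OsLAP6* were 539 and 372 CPM in SD against 7.92 and 7.53 CPM in LD. For *OsABCG15* they were 35.4 and 20.3 against 0.430 and 0.449 CPM, and for *HTH1* 54.2 and 32.4 against 0.562 and 0.358 CPM. Whether this bears on differences between the SD and LD effects was not tested. In LD anthers 100 of 22992 genes were called (0.435%), 59 higher in the light (0.257%) and 41 lower (0.178%). Of the 476 genes higher in the light in SD, 447 were tested in LD, 22 were called higher there too, and 228 had a positive log2 fold change, with a median of 0.02. The 22 are 4.62% of the 476 and 37.3% of the 59. Of the 34 genes lower in the light in SD, 31 were tested in LD and 1 was called lower, LOC_Os04g49450, with 0.263 to 8.60 CPM in the light and 6.56 to 72.0 CPM in the dark of LD.

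Some of the photosynthesis genes were also called in LD anthers. Of the 36, 8 were called higher in the light of LD (background 0.257%) and 31 had a positive log2 fold change. The 8 were LOC_Os01g41710 (3.23), LOC_Os06g21590 (3.12), LOC_Os07g37550 (3.10), LOC_Os07g05360 (2.77), LOC_Os07g37240 (2.43), LOC_Os07g38960 (1.96), LOC_Os07g25430 (1.36) and LOC_Os08g40160 (1.09). Over the 58 members tested in SD the median was 1.44 in SD and 0.30 in LD, where 57 of them were tested. The median over the 36 was 2.00 in SD and 0.96 in LD, and the SD value was the larger in 35 of 36, which the choice of the 36 on SD values favours. *OsCAB1R* had 115 to 527 CPM in the light of LD and 2.27 to 48.0 CPM in the dark of LD, a log2 fold change of 4.14 (SE 0.90, edgeR adjusted p = 0.0548). The difference between the SD and LD effects of *OsCAB1R*, tested as an interaction over 24 libraries, was 1.30 (SE 0.92, adjusted p = 0.355). Of the 36 genes, 7 were called for this interaction (background 5.23%). The choice of the 36 on SD values favours such calls, so the 7 are no measure against that background. *OsPRR95* was called in both photoperiods, with 39.3 to 82.5 CPM in the light and 13.5 to 17.6 CPM in the dark of LD (log2 fold change 1.94, adjusted p = 0.00111), and its interaction was 0.80 (SE 0.43, adjusted p = 0.216).

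**Figure D5:**
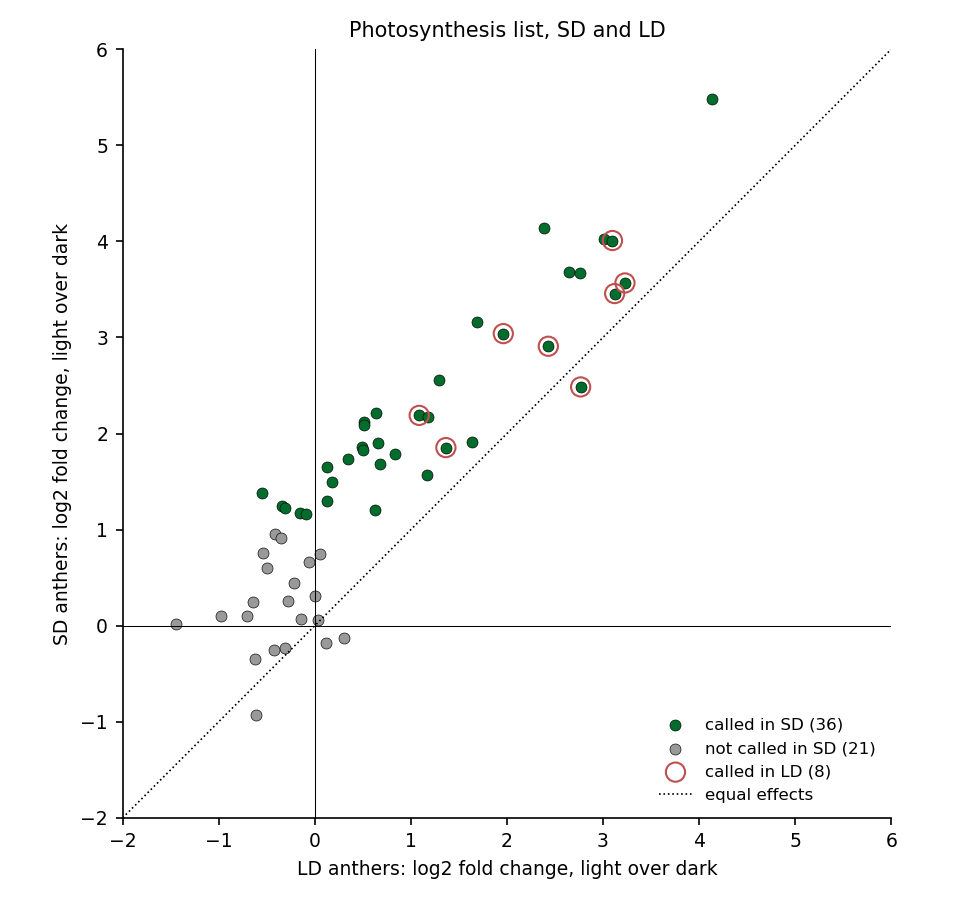
Log2 fold change of light over dark in SD anthers (vertical axis) against that in LD anthers (horizontal axis) for the 57 photosynthesis genes tested in both. Green points are the 36 genes called in SD, grey points the others, red circles the 8 called in LD, and the dotted line marks equal effects. Of the 36 green points 35 lie above that line.

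Over all genes, the light against dark effect differed between SD and LD for 1260 of 24087 genes (5.23%), with 911 more positive in SD (3.78%) and 349 more negative (1.45%). Of the 476 genes higher in the light in SD, 202 were among them, and of the 34 lower genes, 11. Both sets were chosen for their SD effect, which favours a difference from LD, so these counts are no measure against the 5.23%. *SSIIB* had an interaction of 1.60 (SE 0.47, edgeR adjusted p = 0.0345), with a log2 fold change of 1.62 in SD and −0.02 in LD. LTPL113 had one of 2.58 (SE 0.55, adjusted p = 0.0127), with 1.35 in SD and −1.26 in LD, and in LD its levels were 8.46 to 37.9 CPM in the light and 13.5 to 79.1 CPM in the dark. The largest positive interactions among annotated genes were those of LOC_Os06g51060 (3.64), a gene with the term carbohydrate binding that had 71.3 and 91.0 CPM at SD 12:00 and 2.75 to 8.15 CPM in the other SD libraries, of a glycosyl hydrolase of family 16 (LOC_Os03g01800, 3.25) and of a GDSL-like lipase (LOC_Os10g25340, 3.03). The largest negative ones were those of LOC_Os03g49430 (−9.07), LOC_Os11g31060 (−6.30) and LOC_Os02g04650 (−3.65), and they followed LD 12:00. LOC_Os11g31060 had 0.649 to 2.20 CPM in the light and 0.405 to 1.11 CPM in the dark of SD, and 108 and 635 CPM at LD 12:00 against 0.309 to 2.53 CPM in the dark of LD. When 12:00 was left out of both photoperiods, 0 genes were called for the interaction in edgeR (4355 with an unadjusted p below 0.05), and DESeq2 on all libraries called 1763. Without 04:00, 2 genes were called.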

How the data were processed

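Anther RNA of 24 libraries (SD and LD, 6 time points, 2 biological replicates) was sequenced on an Ion Proton. The authors filtered reads with FastQC, mapped them with MapSplice to the Nipponbare genome of the MSU annotation, and deposited raw counts of reads for 55986 loci. The counting tool, its use of strand and its treatment of reads with several matches are not given in the sources used here. The clock time and photoperiod of each library were taken from the labels. The series' design text and the paper's methods differ on the LD day length, and the paper's 14 h of light was used. Whole libraries held 18043740 to 27529649 counts, and every column of the table was used.

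Light (08:00, 12:00, 16:00) was compared with dark (20:00, 00:00, 04:00) in the 12 SD libraries with edgeR 4.0.16 (R 4.3.3), using TMM factors, filterByExpr and the quasi-likelihood F-test. Genes were called at a Benjamini-Hochberg adjusted p below 0.05 over all genes tested and at least a 2-fold change. The SE of a log2 fold change is its size divided by the square root of F. The same fit was made in LD, the interaction was tested over 24 libraries, and CPM values are TMM-scaled. Library-level values were compared with exact permutation tests over the 924 splits of 12 libraries. The test was also run on simulated counts with known fold changes. These held no time-point effects, so they could not check the sharing of time points by libraries in this design. Alternatives were DESeq2 1.42.0, other size factors and filters, a test against a 2-fold change, a replicate block, a model of the 6 time points, replicates summed per time point, and leaving out each library or time point.

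Gene annotation came from the paper's text and sheets and covered 4288 loci, of which lists were made by gene ontology term, words of the annotation or locus. Of the 510 genes called, 128 had an annotation. The members and lists were chosen with earlier results of these data known, and the anther-specific list was chosen by the study on these libraries. The sheets that gave the annotation hold genes selected on SD against LD, or on co-expression, in these libraries. Shares of lists built from them, set against all genes, may be affected by that selection. Named genes are the 10 largest annotated, called and non-overlapping changes in each direction with a mean of at least 5 CPM, the 2 largest in each direction without regard to annotation, all clock genes and *OsCAB1R*, up to 4 called members of each other list by adjusted p, and the 3 largest annotated interactions in each direction with a mean of at least 5 CPM. The tapetum genes were taken as markers of the tissue. All other named genes were chosen after their values were seen.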

Additional observations from a re-analysis of the deposited data

Results flagged for a closer look

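The effect of light against dark differed between SD and LD for 1260 genes (interaction, edgeR adjusted p below 0.05 and at least a 2-fold difference). It was 0 genes when 12:00 was left out and 2 when 04:00 was left out. Over all genes tested this was 5.23%. Of the 76 genes named here 23 had such a difference, given as the SD minus the LD log2 fold change. Of these, 6 were named for it and most others for their SD effect, so the 23 is partly set by that choice.

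Among genes of lipids, cell wall and secretion the effect was more positive in SD for LTPL113 (LOC_Os02g44320, 2.58), LTPL56 (LOC_Os07g43290, 1.15), the 3-ketoacyl-CoA synthase LOC_Os02g56860 (2.09), *CLA1* (2.06), the fatty acid hydroxylase LOC_Os03g01820 (2.00), the peroxidase LOC_Os08g20730 (2.37), the glycosyl hydrolase LOC_Os03g01800 (3.25), the endoglucanase LOC_Os08g29770 (2.57) and the GDSL-like lipases LOC_Os10g25340 (3.03) and LOC_Os08g45150 (2.14). Among genes of translation it was more positive for LOC_Os09g39500 (1.77), LOC_Os01g44210 (1.88), LOC_Os11g34940 (2.02) and LOC_Os12g03090 (1.47). Among genes of carbon metabolism, water transport and the thylakoid it was more positive for *SSIIB* (1.60), *GADPH* (1.47), the carbohydrate binding gene LOC_Os06g51060 (3.64), the aquaporin LOC_Os07g26660 (1.80) and LOC_Os12g37710 (1.26). The effect was more negative in SD for LOC_Os10g39140 (−1.65), LOC_Os02g04650 (−3.65), LOC_Os11g31060 (−6.30) and LOC_Os03g49430 (−9.07). The last gene had no more than 0.887 CPM in any SD library and 41.9 and 332 CPM at LD 12:00.

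Single light libraries stood far from the other 5 in 3 of 152 groups of 6 examined, where chance gives about 1 in 20 groups. SD 08:00 replicate 2 had 84.1 CPM of *OsZTL1*, against 70.7 to 75.2 CPM in the other light libraries, and 0.887 CPM of LOC_Os03g49430. SD 12:00 replicate 2 had 1.63 CPM of LOC_Os10g21406, against 0.143 to 0.499 CPM in the other light libraries.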

How the results depend on the processing

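Of the 510 genes of the SD comparison, the count was 1716 with no fold-change threshold, 24 in a test against a 2-fold change, 3 with replicates summed, 1068 (67.0% of them higher in the light, against 93.3%) in the model of the 6 time points and 911 in DESeq2. It was 61, 977, 89 and 99 without 04:00, 08:00, 12:00 and 20:00, and between 144 and 900 on leaving out 1 library. RLE factors (523), library totals (481), both filters (424 and 462), a replicate block (453), the 24-library fit (643), and leaving out 00:00 (454) or 16:00 (648) stayed within 1.5 times. The photosynthesis count of 36 was 15 in the test against a 2-fold change, 3 with replicates summed, and between 31 and 37 on leaving out 1 library. The LD count of 100 was 1006 in the time-point model, 29 with a replicate block, 727 in DESeq2, and 4 without 00:00, 35 without 04:00, 254 without 08:00, 31 without 12:00, 1963 without 16:00 and 293 without 20:00. The time-of-day count of 4040 was 10032 without a filter, 8035 in DESeq2 and 3228 with the block. The interaction count of 1260 was 2873 in the model of 12 groups, 2282 without 08:00, 0 without 12:00 (4355 with an unadjusted p below 0.05), 3214 without 16:00, 2086 without 20:00, 499 without 00:00, 2 without 04:00, 1175 with the block, 1099 with library totals and 1763 in DESeq2. Apart from the filters, the number of libraries left out and the thresholds themselves, the cause of these changes was not tested.

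The replicate numbers did not pair the libraries: over 15 pairs of time points the deviations of same-numbered libraries correlated between −0.477 and 0.422 (median −0.039). With the block, 45 of the 49 named genes called stayed called. DESeq2 kept 49, library totals 47, the time-point model 48, leaving out 12:00, 04:00 or 20:00 22, 15 and 22, and leaving out SD 00:00 replicate 1 26. Under every alternative but the test against a 2-fold change and the summed replicates it was 15, and 0 of the 49 changed sign.

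Genes that were not called changed sign 17 times. *OsGI* was at −0.062 without 04:00 and −0.14 without 16:00. *OsLUX* was at 0.067 without 08:00, 0.058 without 12:00 and 0.65 without 20:00, and between −1.13 and 0.0056 on leaving out 1 library. *OsTOC1/OsPRR1* was at −0.084 without 04:00, −0.014 without 12:00 and −0.16 without 16:00, and between −0.040 and 0.19 on leaving out 1 library. *OsZTL2* was at −0.021 with library totals and −0.0045 without 04:00. LOC_Os06g01340 was at 0.11 without 12:00. *CSA* was at −0.0073 with library totals and −0.062 without 08:00, and between −0.019 and 0.10 on leaving out 1 library.

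Below about 1 CPM a gene rests on few counts per library, and 3 light against 3 dark time points cannot give an exact permutation p below 0.1.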

Other observations

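Further groups of secreted enzymes and transporters held several of the genes higher in the light. They were formed from words of the annotation after their values were seen, so no test of the groups was made. Of 64 GDSL-like lipases tested, 9 were higher and 0 lower in the light of SD (background 2.09% and 0.149%), with log2 fold changes from 1.02 to 1.62. All 9 had their highest mean at 12:00, as did 83.4% of all 476 genes called higher in the light. Without 12:00, 0 of these lipases were called in edgeR. The median of the 64 was 0.54 in SD and −0.54 in LD. LOC_Os08g45150, one of these lipases, had 4699 and 4798 CPM at 12:00, 1875 to 2647 CPM at 08:00 and 16:00, and 810 to 2154 CPM in the dark of SD (log2 fold change 1.25, SE 0.29, adjusted p = 0.0278). In LD it had 207 to 1098 CPM in the light and 376 to 1555 CPM in the dark.

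Of 67 glycosyl hydrolases tested, 6 were higher (background 2.09%) and 0 lower (background 0.149%) in the light of SD, 0 were called without 12:00, and the median was 0.49 in SD and −0.34 in LD. LOC_Os03g01800, a member of family 16, had 143 and 164 CPM at SD 12:00, 27.4 to 81.5 CPM at the other SD light time points and 14.1 to 43.2 CPM in the dark of SD (log2 fold change 1.66, adjusted p = 0.032, and 0.115 without 12:00). Of 39 peptide transporters 3 were higher (background 2.09%) and 0 were called without 12:00. Of 24 proteins with a heavy metal-associated domain 2 were higher (background 2.09%), 1 of them also without 12:00.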
